A study of Mus musculus with 16 samples.

Results

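The 9 genes described here, Vwf, F3, F5, F8, Tfpi, Thbd, Procr, Plat and Plau, encode the proteins with which endothelial cells start, amplify, restrain and dissolve a blood clot. They were chosen by name for that role, with earlier results of these data known. They are 9 of the 39057 rows of a gene count table (39056 mouse identifiers and 1 human row). Each was found once in the table through its identifier in the GENCODE mouse annotation. The table holds RNA sequencing counts from 16 primary cultures of cortical brain endothelial cells, 1 brain per culture, that were selected with puromycin, grown to confluence and given no experimental treatment. The donors were targeted replacement mice, 8 of the APOE3 and 8 of the APOE4 genotype, and each genotype had 4 male and 4 female cultures. Donors of both groups were 21 to 28 days old and carry human APOE, in the E3 or the E4 form, in place of the mouse gene and under its promoter, so a human APOE form is common to both groups. All cultures were grown in microvascular endothelial medium with 5.5 U/ml of heparin, itself an anticoagulant, and no group without it is at hand. The comparison asks whether the clotting and fibrinolysis genes of these cells differ between the APOE forms.

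Clotting begins when tissue factor, the product of F3, meets factor VII, and it is amplified on membranes that expose phosphatidylserine by the cofactors factor VIII and factor V, the products of F8 and F5. Von Willebrand factor, stored in the Weibel-Palade bodies of endothelial cells, carries factor VIII and tethers platelets. Endothelium counters these with tissue factor pathway inhibitor (Tfpi), with thrombomodulin and the endothelial protein C receptor (Thbd and Procr), which together turn thrombin into an activator of protein C, and with the plasminogen activators of tissue and urokinase type (Plat and Plau), which start the breakdown of fibrin.

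Total counts per library ranged from 12717847 to 18624417, and no pair of libraries held identical values. Spearman correlations of the counts between libraries ran from 0.979 to 0.996 over the 12481 genes that passed the filter on low counts. All 12 brain endothelial markers were detected, and their summed level spanned 13929 to 14872 CPM (counts scaled to a common library size) in APOE3 and 13854 to 15085 CPM in APOE4 libraries. The human APOE row held 15504 to 22318 counts in APOE3 and 7672 to 14722 counts in APOE4 libraries, which does not tell the 2 alleles apart. Between genotypes, 837 genes (6.71% of those tested) were higher and 760 (6.09%) were lower in APOE4 at an adjusted p under 0.05 by the edgeR quasi-likelihood test with Benjamini-Hochberg adjustment, 12.8% in all. The median log2 difference over all genes tested was -0.00022 under the TMM scaling, which centres most genes near 0.

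All 9 genes passed the filter. F5 was the only member to differ between the genotypes: it was higher in APOE4 cultures by 0.75 on the log2 scale. This is 1 of 9, or 11.1%, beside the 6.71% of all genes tested that were higher, and 0 of 9 beside the 6.09% that were lower. The median log2 difference of the 9 was 0.04, and 7 of the 9 differences were above 0.

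**Figure D1:**
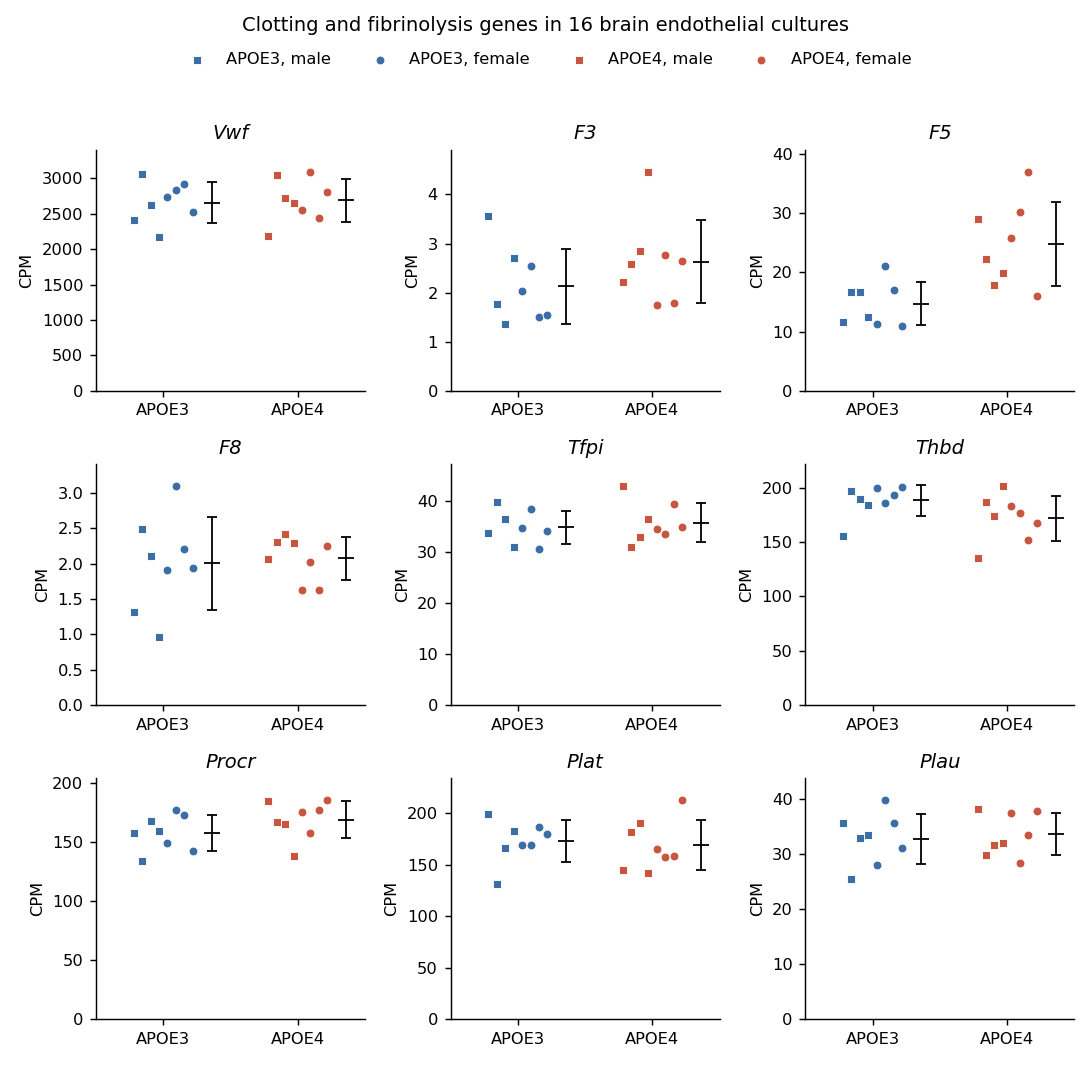
Level of each of the 9 genes in CPM (y axis, from 0) in every library, by genotype (x axis), with squares for male and circles for female cultures and bars for the mean and SD of 8 libraries. The F5 points of APOE4 reach 36.9 CPM against 21.1 CPM in APOE3, and the points of all 9 genes overlap between genotypes.

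Among the procoagulant genes, F3 was detected at a low level in all cultures. It spanned 1.36 to 3.56 CPM in APOE3, with a median of 1.91, and 1.74 to 4.45 CPM in APOE4, with a median of 2.62. The groups overlapped, and 6 of 8 APOE4 libraries lay above the APOE3 median. The log2 difference was 0.30 ± 0.22 (SE, n = 8 per genotype, edgeR adjusted p = 0.382), with a 95% confidence interval from -0.15 to 0.76, which leaves room for a rise as large as that of F5. The library counts for F3 were 22 to 72, where counting error alone gives a coefficient of variation of 16.4%, against 35.6% observed in APOE3 and 32.2% in APOE4.

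F5, the cofactor of factor Xa in the complex that makes thrombin, spanned 10.9 to 21.1 CPM in APOE3, with a median of 14.6, and 15.9 to 36.9 CPM in APOE4, with a median of 24.1. Every APOE4 library lay above the APOE3 median and 5 of 8 lay above the highest APOE3 library, while 4 of 8 APOE3 libraries lay below the lowest APOE4 library, so the groups overlapped. The means were 14.7 ± 3.68 and 24.7 ± 7.09 CPM (SD, n = 8 each), a fitted 1.68-fold difference with a 95% confidence interval from 1.33 to 2.14, and edgeR gave a log2 difference of 0.75 ± 0.17 (SE) with an adjusted p of 0.00917. In bulk RNA, more RNA per cell and a larger share of cells that carry it cannot be told apart. The library counts for F5 were 163 to 679.

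F8, the cofactor of factor IXa, lay at the lower edge of what these libraries hold, with 16 to 44 counts per library. It spanned 0.965 to 3.10 CPM in APOE3, with a median of 2.02, and 1.63 to 2.43 CPM in APOE4, with a median of 2.16. The APOE4 values lay within the APOE3 range, and the log2 difference was 0.05 ± 0.19 (SE, n = 8 per genotype, edgeR adjusted p = 0.890). Its interval, -0.34 to 0.45, does not reach the difference of F5. Counting error alone gives F8 a coefficient of variation of 17.8%, more than the 14.7% observed in APOE4 and below the 33.0% in APOE3.

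Vwf spanned 2166 to 3068 CPM in APOE3, with a median of 2680, and 2192 to 3088 CPM in APOE4, with a median of 2694. These ranges nearly coincided, with 4 of 8 APOE4 libraries on either side of the APOE3 median. The log2 difference was 0.02 ± 0.07 (SE, n = 8 per genotype, edgeR adjusted p = 0.912), and its 95% confidence interval from -0.13 to 0.16 holds no difference beyond 1.12-fold.

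Of the anticoagulant genes, Tfpi spanned 30.5 to 39.8 CPM in APOE3, with a median of 34.4, and 31.0 to 42.9 CPM in APOE4, with a median of 34.7. Its log2 difference was 0.04 ± 0.07 (SE, n = 8 per genotype, edgeR adjusted p = 0.771). Thbd had the lowest difference of the 9 genes, with 155 to 200.2 CPM and a median of 191 in APOE3 against 135 to 201 CPM and a median of 175 in APOE4. For Thbd, 7 of 8 APOE4 libraries lay below the APOE3 median, yet the log2 difference of -0.13 ± 0.07 (SE, n = 8 per genotype) did not pass the test (edgeR adjusted p = 0.203, interval -0.27 to 0.01). Its partner Procr leaned to the opposite side without passing the test. Procr spanned 134 to 178 CPM with a median of 159 in APOE3 and 139 to 185 CPM with a median of 172 in APOE4, and the log2 difference was 0.10 ± 0.06 (SE, n = 8 per genotype, edgeR adjusted p = 0.292, interval -0.03 to 0.23).

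The plasminogen activators had near-equal means. Plat spanned 131 to 199 CPM with a median of 175 in APOE3 and 142 to 213 CPM with a median of 162 in APOE4, with a log2 difference of -0.03 ± 0.08 (SE, n = 8 per genotype, edgeR adjusted p = 0.846, interval -0.20 to 0.14). Plau spanned 25.4 to 39.7 CPM with a median of 33.1 in APOE3 and 28.3 to 38.2 CPM with a median of 32.7 in APOE4, with a log2 difference of 0.04 ± 0.08 (SE, n = 8 per genotype, edgeR adjusted p = 0.810, interval -0.13 to 0.21). For the 8 genes that missed the threshold, the intervals bound the difference and do not show equality.

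To compare levels between genes, CPM were divided by the length of each gene's exons in kb. Vwf was the most abundant at 167 ± 17.8 CPM per kb (mean ± SD, n = 16), above 98.3% of the genes tested. Procr followed at 80.5 ± 7.87, Thbd at 48.3 ± 5.15 and Plat at 27.4 ± 3.47 CPM per kb. Plau came next, from 10.7 to 16.8 CPM per kb over the libraries, and then Tfpi at 6.46 ± 0.633 CPM per kb, above 73.9% and 52.6% of the genes tested. The clotting cofactors and tissue factor came last, F5 at 2.66 ± 1.01, F3 at 0.942 ± 0.324 and F8 at 0.206 ± 0.0504 CPM per kb, the last above 2.43% of the genes tested. So the transcripts of anticoagulant and fibrinolytic genes were more abundant per length than those of F3, F5 and F8, and Vwf stood above both sets. All 8 pairs of neighbours in this order stood in it in 16 of 16 libraries, and each gave p = 3.05e-05 by a two-sided exact sign-flip permutation test over libraries (adjusted over the 8 pairs, 3.05e-05), the smallest value 16 libraries allow. The order was read from these same libraries, so these values say only that each step had the same direction in every library. The step from Procr to Thbd was the smallest, 0.74 ± 0.28 on the log2 scale (SD), and the step from F3 to F8 the largest, 2.16 ± 0.64.

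**Figure D2:**
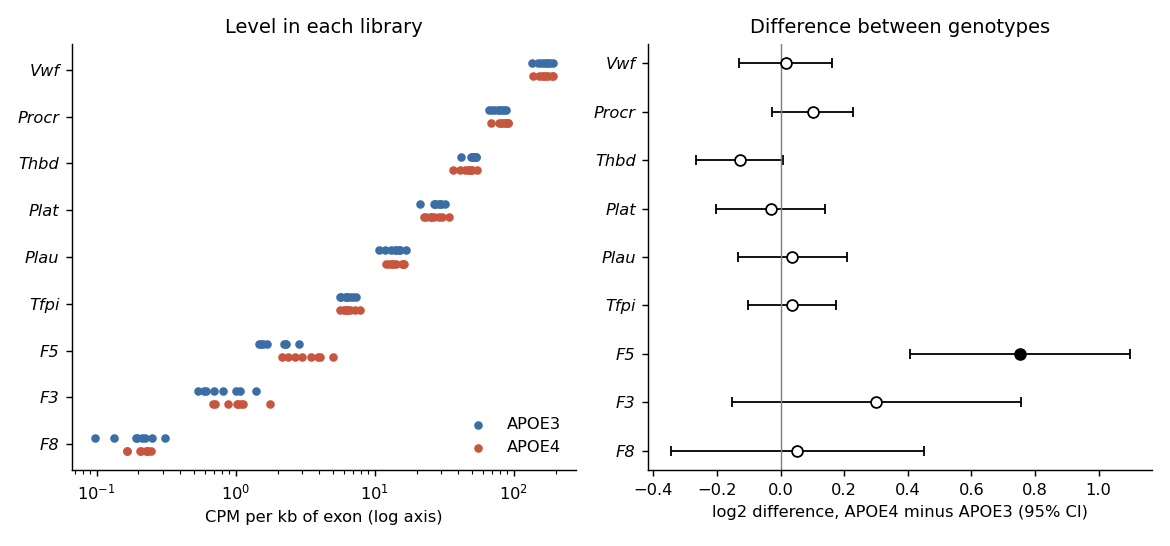
Left, level of each gene in each library in CPM per kb of exon on a log axis, coloured by genotype and ordered from a mean of 167 for Vwf to F8 at 0.206. Right, log2 difference between APOE4 and APOE3 with its 95% confidence interval, filled where the adjusted p is under 0.05, which holds for F5 alone at 0.75.

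The RefSeq promoter windows of F5 and of Selp, the gene just before it on the same strand of chromosome 1, are shown because the 2 genes were both higher in APOE4 and varied together, as described next. A RefSeq promoter (GRCm38.p6) was at hand for 5 of the 9 members. Capitals mark matches, on either strand, to 7 short motifs. These were TATAAA (the core box of many promoters), CCAAT (bound by NF-Y), GGGCGG (the GC box, bound by SP1), TGANTCA (the motif of AP-1 factors), AGATAA (the motif of factors of the GATA family), CCGGAA (the motif of ETS factors) and TTTGAA (the CHR element of cell cycle genes).
F5 promoter, chr1:164151585-164151884, + strand: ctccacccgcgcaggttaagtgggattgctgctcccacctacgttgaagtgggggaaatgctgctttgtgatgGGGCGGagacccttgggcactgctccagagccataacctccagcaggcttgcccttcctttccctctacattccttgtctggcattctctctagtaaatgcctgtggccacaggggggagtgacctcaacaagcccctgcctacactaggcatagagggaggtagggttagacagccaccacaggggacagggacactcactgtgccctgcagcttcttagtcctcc
Selp promoter, chr1:164115014-164115313, + strand: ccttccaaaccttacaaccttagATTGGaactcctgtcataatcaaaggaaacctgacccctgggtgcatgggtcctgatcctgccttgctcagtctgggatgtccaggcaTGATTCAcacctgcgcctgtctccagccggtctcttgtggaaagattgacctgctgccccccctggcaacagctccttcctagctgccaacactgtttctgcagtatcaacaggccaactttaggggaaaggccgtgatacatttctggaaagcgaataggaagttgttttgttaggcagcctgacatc
The F5 window held 1 motif, a GC box at bases 74 to 79, which 35.7% of all 32851 promoters of that length hold. The Selp window held a CCAAT box read on the opposite strand at bases 24 to 28 (37.4% of all promoters) and an AP-1 match at bases 112 to 118 (7.81%). No motif of the 7 was in both windows, and TATAAA, which 13.6% of all promoters hold, was in neither. GATA, ETS and CHR letters, held by 11.2%, 14.9% and 17.9% of promoters, were likewise in neither window. A match describes letters and not a bound site.

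F5 occupies 1:164151838-164220277 (GENCODE, GRCm38, + strand) and starts 1811 bases after the end of Selp, which encodes P-selectin, the receptor that Weibel-Palade bodies bring to the cell surface to capture leukocytes and platelets. Selp spanned 3.15 to 10.7 CPM in APOE3 and 11.3 to 25.5 CPM in APOE4, and all APOE4 libraries lay above all APOE3 libraries, which was so for 0.256% of the genes tested (0.369% lay below in the same way). The log2 difference of Selp was 0.94 ± 0.21 (SE, n = 8 per genotype, edgeR adjusted p = 0.00872). After genotype means were subtracted from log2 CPM, F5 and Selp deviated together over the 16 libraries, with r = 0.672 (permutation p = 0.00356) and rho = 0.724 (permutation p = 0.00257). Without the 2 libraries farthest from the median of Selp, r was 0.668, and within genotypes it was 0.816 in the APOE3 and 0.547 in the APOE4 libraries. This pair was singled out with the differences of both genes known, and its p-values are not adjusted for that choice. Other genes tested followed F5 more closely, up to r = 0.949 for Nuak2. Whether F5 and Selp varied together because they are neighbours was not tested.

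Of 21 annotated genes that start within 500 kb of the F5 start, 11 were tested and 3 were higher in APOE4, beside 6.71% of all genes tested. Besides Selp, these were BC055324, at 0.46 ± 0.11, and Nme7, at 0.25 ± 0.08 (log2 difference ± SE, n = 8 per genotype, edgeR adjusted p = 0.0140 and 0.0413). Sele, the E-selectin gene of the same cluster, gave 0.26 ± 0.13 and did not pass (edgeR adjusted p = 0.189, n = 8 per genotype). Mettl18 at 0.30, Ccdc181 at 0.12, Slc19a2 at 0.04 and Kifap3 at 0.02 did not pass, nor did Scyl3 at -0.06, Blzf1 at -0.09 and Atp1b1 at -0.18. Around each of the other 8 members, 5 to 21 genes were tested in the same window, with 0 to 2 higher and 0 to 1 lower. Those higher were 2 of 14 around Vwf, 1 of 5 around F3, 1 of 10 around F8 and 2 of 12 around Tfpi. None were higher around Thbd, Procr, Plat and Plau. The lincRNA Gm16548 overlaps exon sequence of F5 on the opposite strand and held 6 counts in all 16 libraries together, against 4942 for F5.

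F5 also varied with a cell cycle score, a relation looked at after the score had been used as a covariate, and taken as the mean log2 CPM of 20 proliferation genes such as Mki67. All 20 of these genes passed as higher in APOE4, beside 6.71% of all genes tested, with a median log2 difference of 0.68. The 20 genes were listed with earlier results of these data known, so this share is a description and not evidence about the list. The summed level of the 20 genes spanned 817 to 1872 CPM in APOE3 and 1531 to 2709 CPM in APOE4. The paper reported no genotype difference in cell density or in bromodeoxyuridine staining, its measure of proliferation, at confluence. Over the 16 libraries, with genotype means subtracted, the F5 deviation had r = 0.792 with the score (permutation p = 0.00028, adjusted over the 9 members 0.00252) and rho = 0.809 (permutation p = 0.0004, adjusted 0.0036). Without the 2 libraries farthest from the median score r was 0.725, and it was 0.877 within the APOE3 and 0.740 within the APOE4 libraries. For the other 8 members r ran from -0.471 for Thbd to 0.534 for Tfpi, and none passed the adjustment (permutation, adjusted p of 0.150 or more). With the score as a covariate, the F5 difference was 0.15 ± 0.15 (SE, n = 8 per genotype, edgeR adjusted p = 0.858), the Selp difference was 0.45 ± 0.25 (edgeR adjusted p = 0.754) and 0 of 12481 genes passed, 873 of them at an unadjusted p under 0.05. Score and genotype move together in these cultures, and the part of the score in the F5 difference was not tested.

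**Figure D3:**
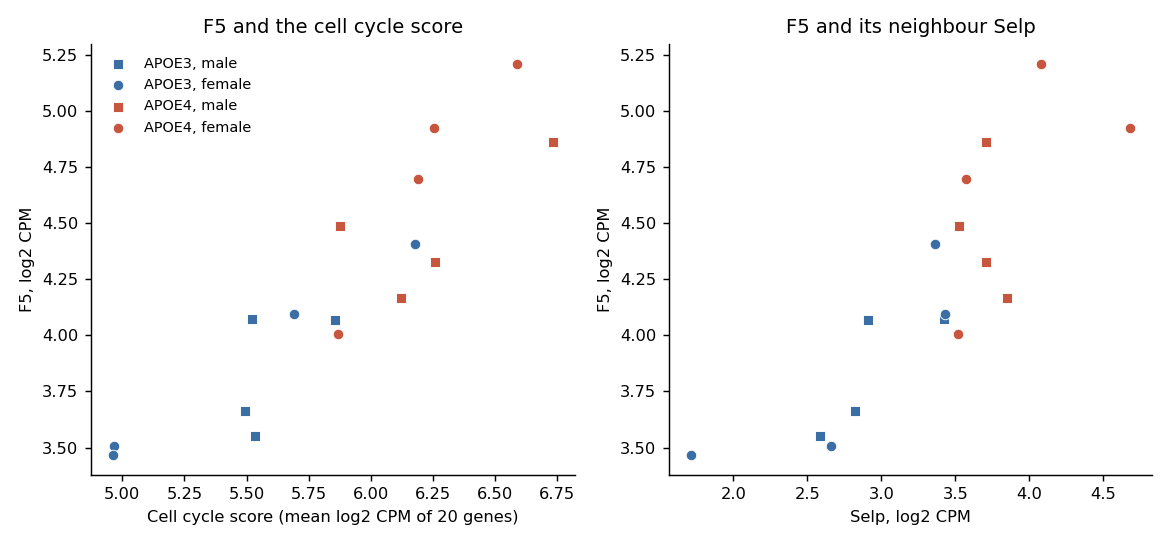
Log2 CPM of F5 (y axis) in each of the 16 libraries against the cell cycle score (left) and against log2 CPM of Selp (right), by genotype (colour) and sex (shape). F5 is higher where the score is higher within each genotype (r of 0.877 in APOE3 and 0.740 in APOE4), and every APOE4 library lies to the right of the APOE3 libraries for Selp.

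The summed levels of 7 lists of markers of other cells gave adjusted p-values of 0.0632 or more between genotypes (two-sided exact permutation test, n = 8 per genotype, adjusted over 11 lists). Pericyte and smooth muscle markers, 8 of 8 detected and led by Acta2, summed to 72.8 to 132 CPM in APOE3 and 78.8 to 122 CPM in APOE4. Fibroblast markers, 6 of 6 detected and led by Col15a1, summed to 86.7 to 146 and 66.7 to 162 CPM. Astrocyte markers, 6 of 6 detected and led by Gja1, summed to 32.1 to 41.7 and 33.8 to 43.6 CPM, with Gfap at 6 counts or fewer per library. Platelet and megakaryocyte markers summed to 2.60 to 5.42 CPM in APOE3 and 1.83 to 3.31 CPM in APOE4, most of it Itga2b, and Ppbp and Gp9, 2 of 6 markers, were at 0 in every library. Microglia and macrophage markers, led by Mrc1, summed to 1.60 to 3.56 and 1.48 to 2.95 CPM with P2ry12 at 0 (6 of 7 detected). Neuron markers, 5 of 5 detected and led by Tubb3, summed to 10.7 to 14.6 and 12.7 to 17.7 CPM, and oligodendrocyte markers, 4 of 5 detected with Olig2 at 0, to 0.670 to 1.97 and 0.504 to 1.65 CPM. Venous endothelial markers, 6 of 6 detected and led by Vcam1, summed to 1057 to 1360 CPM in APOE3 and 1389 to 1726 CPM in APOE4, without overlap (two-sided exact permutation test, p = 0.00016, adjusted over 11 lists 0.0017, n = 8 per genotype). Lcn2, from 392 ± 69.1 to 574 ± 90.1 CPM, and Vcam1, from 471 ± 59.3 to 636 ± 48.7 CPM (SD, n = 8 each), carried this rise, since Ephb4 was lower (log2 difference -0.20), Ackr1 and Nr2f2 gave -0.30 and -0.11 and Slc38a5 0.06 without passing, and the median of the 6 was -0.02. The sum therefore does not show that venous markers were higher as a list. Arterial markers, 7 of 7 detected and led by Sema3g, summed to 432 to 635 and 458 to 673 CPM. The part of these marker genes in the F5 difference was not tested.

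Sex made no detectable difference to any of the 9 genes. In a fit of 4 groups of genotype by sex, 9 genes of the 12481 tested (0.0721%) differed between females and males and none was a member, with 0 members at an unadjusted p under 0.05. F8, which lies on the X chromosome, differed by 0.07 ± 0.18 between females and males (log2 difference ± SE, edgeR adjusted p = 1.00, n = 8 per sex), and F3 by -0.38 ± 0.21 (edgeR adjusted p = 1.00, n = 8 per sex).

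The F5 difference pointed the same way in both sexes. In males F5 spanned 11.6 to 16.7 CPM in APOE3 and 17.8 to 29.0 CPM in APOE4 (n = 4 each). In females it spanned 10.9 to 21.1 and 15.9 to 36.9 CPM (n = 4 each). The log2 difference was 0.62 ± 0.24 in males (SE, n = 4 per genotype, edgeR adjusted p = 0.258) and 0.86 ± 0.23 in females (SE, n = 4 per genotype, edgeR adjusted p = 0.0777). Neither passed the adjustment, in fits where 0 genes (0%) passed in either sex, with 1775 genes in males and 2428 in females at an unadjusted p under 0.05, while the DESeq2 Wald test called 35 and 418 genes. The difference between the sexes in the F5 effect was 0.24 ± 0.33 (SE, n = 4 per genotype and sex, edgeR adjusted p = 1.00), and again 0 genes (0%) passed for the difference between sexes by edgeR, 345 at an unadjusted p under 0.05, or by DESeq2. F8 showed the widest gap between sexes, with 0.41 ± 0.26 in males and -0.29 ± 0.26 in females (log2 difference ± SE, n = 4 per genotype and sex), yet the difference of -0.70 ± 0.37 did not pass (edgeR adjusted p = 1.00).

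Across cultures of a genotype, some members varied together. Of the 36 pairs, Procr and Plau had r = 0.776 over 16 libraries with genotype means subtracted (permutation p = 0.0006, adjusted over the 36 pairs 0.0216) and rho = 0.838 (adjusted permutation p = 0.00396). Without the 2 libraries farthest from the median of Procr, r was 0.822. Vwf and F8, which encode a carrier and its cargo, had r = 0.689 (permutation p = 0.0026, adjusted 0.0468) and rho = 0.679 (adjusted permutation p = 0.0800), with r = 0.658 without the 2 farthest libraries, so only the Pearson value passed. Tfpi and Plat leaned apart, with r = -0.658 (permutation p = 0.00771, adjusted 0.0925) and rho = -0.676 (adjusted permutation p = 0.0800), and neither value passed. When the means of genotype by sex were subtracted in place of genotype means, none of the 36 pairs passed, with an adjusted permutation p of 0.0572 for both Procr with Plau and Vwf with F8.

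**Figure D4:**
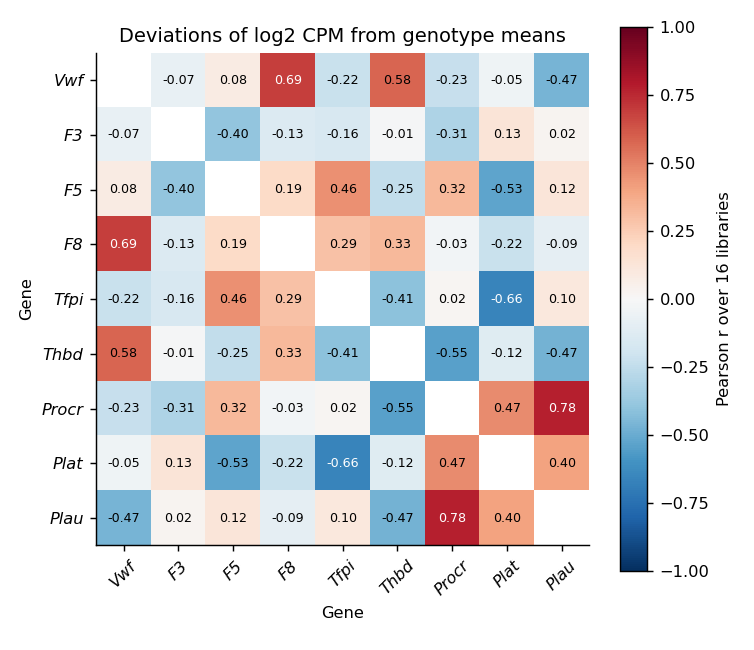
Pearson r between each pair of the 9 genes over 16 libraries, computed on deviations of log2 CPM from the genotype means, from blue (-1) to red (1). The red squares of Procr with Plau, at 0.776, and Vwf with F8, at 0.689, are the 2 pairs with an adjusted p under 0.05.

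Partners in the same reaction were also set against each other within each library, as a description with no test. The log2 ratio of F3 to Tfpi, initiator to inhibitor, averaged -4.10 ± 0.52 in APOE3 and -3.81 ± 0.49 in APOE4 (SD, n = 8 each, ratio of CPM). The ratio of Thbd to Procr averaged 0.26 ± 0.21 and 0.02 ± 0.30 (SD, n = 8 each), and that of Plat to Plau 2.41 ± 0.15 and 2.33 ± 0.25 (SD, n = 8 each). F8 to Vwf averaged -10.44 ± 0.39 and -10.35 ± 0.22 (SD, n = 8 each). All 4 ratios overlapped between genotypes.

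The genes whose deviations were most like those of each member, by Pearson r over the same 16 libraries, were read off from all 12481 genes tested and carry no test. For F5 they were Nuak2 (r = 0.949), Hist1h1c (0.930) and Kif24 (0.921), of which Nuak2 and Kif24 were themselves higher in APOE4, by 0.43 and 0.46 on the log2 scale. Tfpi was most like Zranb3 (r = 0.939), Glrx5 (0.853) and Slc25a3 (0.849), and Thbd most like Zfp521 (0.912), March6 (0.881) and Pbxip1 (0.876). Procr was closest to Hcls1 (r = 0.892), Cgas (0.891) and Vamp3 (0.887), Plat to AA467197 (0.905), Eif3j1 (0.897) and Azin1 (0.893), and Plau to Mmp24 (0.879), Pold3 (0.872) and Trim37 (0.855). Vwf was closest to Tsga10 (r = 0.851), Gm14399 (0.808) and Il6st (0.802), F3 to Col16a1 (0.843), Pdpk1 (0.819) and Rcc2 (0.818), and F8 to Birc2 (0.820), Ddx1 (0.817) and Bgn (0.798). The highest r of Vwf, F3 and F8 was lower than that of the other 6 members.

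Beyond the 9 genes, 70 genes of the same system were listed in 8 groups by role. The lists were drawn up with earlier results of these data known. Their shares, here and in the next paragraphs, are therefore descriptions and not evidence about the lists. Of the 70 genes, 46 were tested, 6 were higher and 4 lower in APOE4 (21.7% in all, beside 12.8% of all genes tested). The median log2 difference of the 46 was 0.06 beside -0.00022 over all genes tested. Of the plasma factors, fibrinogen chains and contact factors, 13 genes of which most are made chiefly by the liver, F7 alone was tested, at 0.871 to 1.49 CPM in APOE3 and 0.414 to 1.35 CPM in APOE4 (log2 difference -0.32 ± 0.20, SE, n = 8 per genotype, edgeR adjusted p = 0.314), and F9, F13a1, Fga, Fgb, Fgg and Kng1 held 0 counts in all libraries. Plg, the plasminogen gene, and Proc, the protein C gene, were likewise at 0 counts in all libraries. The substrates of Plat, Plau, Thbd and Procr were thus not detected as transcripts at this depth. A count of 0 in a single library still allows up to 3 counts there, and 0 in every library allows fewer per library.

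None of the 4 tested genes listed with the anticoagulants passed. Gas6, a ligand of TAM receptors that is not itself an established anticoagulant, gave -0.05 on the log2 scale. Anxa5, a phosphatidylserine-binding annexin, gave 0.07, and Pros1, the protein S gene, gave 0.06. Of the 4 protease-activated receptors, some of which respond to thrombin, none passed. F2r, at 158 to 260 CPM in APOE3 and 187 to 255 CPM in APOE4, gave 0.14, and F2rl3, at 10.1 ± 1.71 and 7.34 ± 2.59 CPM (SD), gave -0.46 ± 0.16 (SE, n = 8 per genotype, edgeR adjusted p = 0.0694). In the plasminogen system, 1 of 9 tested genes passed, or 11.1% beside the 12.8% of all genes. That gene was Thbs1, which encodes the matrix protein thrombospondin-1, at 657 to 1662 CPM in APOE3 and 1058 to 2541 CPM in APOE4 (log2 difference 0.65 ± 0.17, SE, n = 8 per genotype, edgeR adjusted p = 0.0195). Anxa2, a co-receptor for Plat and plasminogen, gave 0.08 (edgeR adjusted p = 0.398).

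Among genes of Weibel-Palade bodies and the handling of von Willebrand factor, 2 of 9 tested genes were higher and 2 lower, 44.4% in all beside 12.8% of all genes, while Vwf itself did not pass. Selp and Rab3d, a secretory granule GTPase, rose by 0.94 and 0.25 on the log2 scale, and Rab3d passed in 8 of the 16 fits that left out 1 library. Mmrn1, which encodes multimerin 1, a binding partner of factor V, fell by 0.62, from 53.0 ± 12.3 CPM in APOE3 to 34.5 ± 9.88 CPM in APOE4 (SD, n = 8 each, edgeR adjusted p = 0.0140), and Cd63, a membrane protein of these bodies, fell by 0.24 (edgeR adjusted p = 0.0278) and passed in 11 of those 16 fits. Angpt2 and Mmrn2, abundant members of the list, gave 0.10 and 0.09 and did not pass.

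Of 7 genes for the secretion and modification of clotting factors, all tested, 2 were lower (28.6%, beside 6.09% of all genes). Tpst2, a tyrosine sulfotransferase, fell by 0.17 (edgeR adjusted p = 0.0118) and Furin, which cleaves the von Willebrand propeptide, by 0.12 (edgeR adjusted p = 0.0402). Furin passed in 6 of the 16 fits that left out 1 library and not without the filter on low counts. Lman1, the cargo receptor of factors V and VIII, gave 0.06 and did not pass (edgeR adjusted p = 0.250). Of 6 genes for phosphatidylserine exposure, 3 were higher, beside 6.71% of all genes. Of these, Plscr1, named a scramblase, rose by 0.48 (edgeR adjusted p = 0.00824), and the scramblase Xkr8 by 0.29 (edgeR adjusted p = 0.0225). The other was the flippase Atp11a, by 0.21 (edgeR adjusted p = 0.0119), whose action counters exposure. Ano6, the scramblase of activated platelets, gave -0.01. Of 6 genes by which endothelium inhibits platelets, none passed, Nos3 being nearest at -0.23 ± 0.08 (SE, n = 8 per genotype, edgeR adjusted p = 0.0538) and Entpd1 giving 0.11. Besides Selp, the other 9 called genes of these lists overlapped between genotypes. All 10 lost their call when the cell cycle score was a covariate, as did every other called gene, since 0 of 12481 genes passed in that fit.

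**Figure D5:**
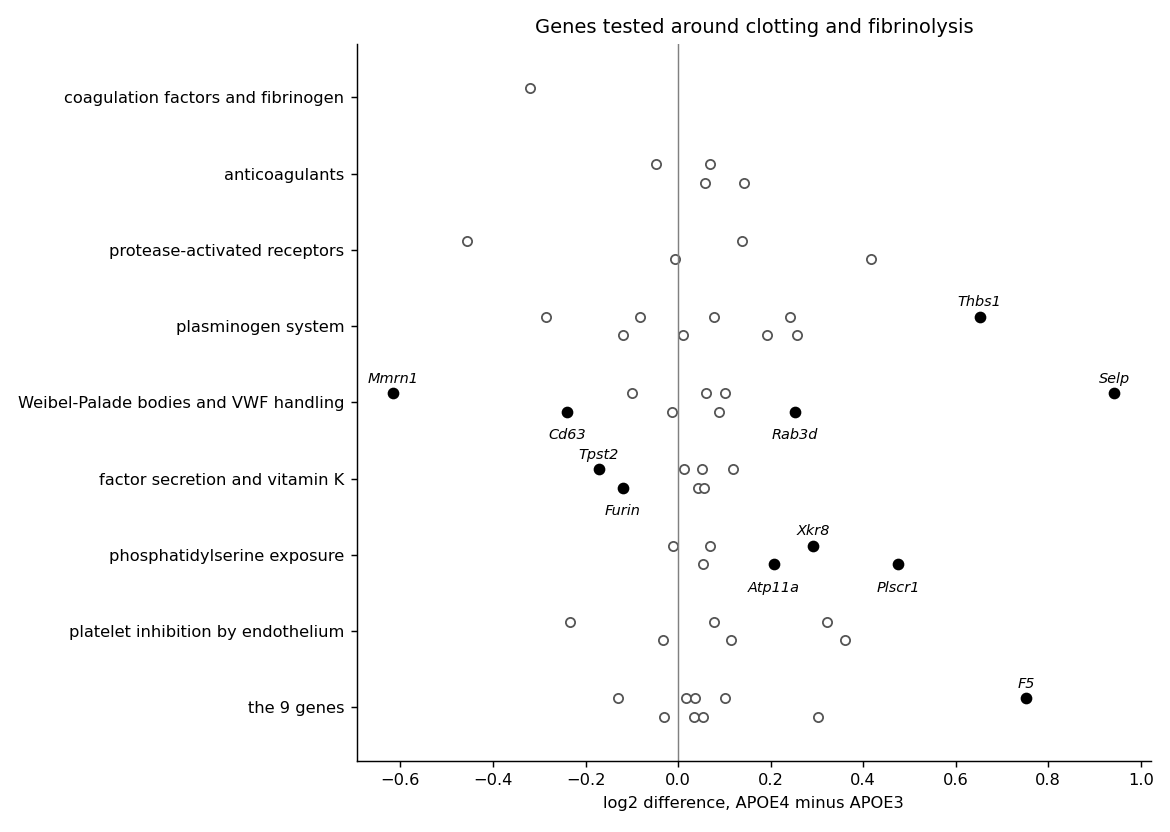
Log2 difference between APOE4 and APOE3 (x axis) of each tested gene of the 8 lists and of the 9 clotting and fibrinolysis genes (rows), filled and named where the adjusted p is under 0.05. Selp at 0.94 and Mmrn1 at -0.62 mark the ends, F5 at 0.75 is the only filled point of the 9 genes, and most points lie near 0.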

How the data were processed

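RNA was measured in 16 cultures, 8 per genotype, from poly-A selected libraries made with 100 ng of total RNA and 17 PCR cycles. The raw counts per gene were deposited by the authors. The submitters' processing notes name STAR and featureCounts with the mm10 and hg38 builds, while versions, annotation release and the strand and multi-mapping settings are not given in the sources used here, so reads shared between similar genes could have been lost. Every column of counts was mapped to a sample (0 were left out).

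Genes were filtered with filterByExpr, scaled by TMM and tested with the edgeR 4.0.16 quasi-likelihood test (R 4.3.3) without covariates, with Benjamini-Hochberg adjustment over all 12481 genes tested and a threshold of 0.05. CPM use TMM library sizes, and log2 CPM a prior count of 2. Symbols came from GENCODE M21 (38872 of 39056 mouse identifiers matched without the version). Permutations numbered 100000 in each correlation, within genotypes. Simulated counts were used to test the fits. Intervals from edgeR are at 95%. DESeq2 1.42.0, limma 3.58.1 and sva 3.50.0 served for alternatives. Cultures came from separate animals, and no batch is named. The members and lists were chosen with earlier results of these data known.

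Named were all 9 members, each list gene that passed, the 2 tested genes of highest CPM in each list, tested genes within 500 kb of F5, the 3 genes most like each member, and of each marker list the leading gene and those at 0. Genes named beyond this rule (Pros1, Proc, Plg, Ephb4, Lcn2, Ackr1, Nr2f2, Slc38a5, Gfap, Mki67 and the factors at 0 counts) were chosen after their values were seen. Some genes that the rule names are not reported here.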

Additional observations from a re-analysis of the deposited data

Results flagged for a closer look

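Of 60 groups of 8 libraries checked for a library far from the other 7 (the 9 members, the 10 called list genes and the 11 marker lists in each genotype), 6 held such a library, where chance alone gives about 1 in 20. F3 stood at 4.45 CPM in the APOE4 male culture 38, the highest of its group. In the same culture Mmrn1 was the highest of the APOE4 group at 56.8 CPM. Thbd was lowest in the APOE3 male culture 25, at 155 CPM. Selp was highest in the APOE4 female culture 40, at 25.5 CPM. Xkr8 at 9.13 CPM and the summed platelet and megakaryocyte markers at 1.83 CPM were lowest in the APOE4 male culture 35, which also had the fewest total counts, 12717847. F5 had no such library in either genotype.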

How the results depend on the processing

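The F5 difference passed in 7 of 8 alternatives, with log2 differences from 0.73 to 0.75, and in all 16 fits that left out 1 library, from 0.64 without the APOE4 culture 41 to 0.84, with adjusted p-values from 0.0026 to 0.0241. When the cell cycle score entered as a covariate it was 0.15 and 0 members, 0 list genes and 0 of all genes passed. In the same fit, differences that had not passed turned sign for F8 (-0.083), Tfpi (-0.12), Thbd (0.0030), Procr (-0.021), Plat (0.10) and Plau (-0.13), as did that of Thbs1 (-0.072). None of the 8 other members passed in any alternative. Leaving out 1 library moved the number of genes that passed from 1597 to between 846 and 2127, and it moved by over 1.5 times without the APOE3 culture 30 (853), without the APOE3 culture 33 (952) and without the APOE4 culture 41 (846), while the number of list genes ran from 6, without the APOE3 culture 30, to 15. Signs turned, none past the threshold, for Vwf (-0.022 to 0.054), F8 (-0.053 to 0.17), Tfpi (-0.0044 to 0.065), Plat (-0.085 to 0.0023) and Plau (-0.0079 to 0.081). Rab3d, Cd63, Furin and Xkr8 passed in 8, 11, 6 and 15 of the 16, and Furin missed the threshold without the filter on low counts. In females F5 was the 1 member to pass without the filter (adjusted p = 0.0116) or without the APOE3 culture 31 (range 0 to 1 member). With means of genotype by sex subtracted, 0 pairs passed. The order of levels, the test of females against males, the test in males, the difference between sexes and the marker lists kept their counts in all alternatives run. No paired analysis was possible because the genotypes share no replicate numbers. Depth limits F3 and F8, at 16 to 72 counts per library.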

Other observations

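Around the members other than F5, the genes within 500 kb that passed between genotypes were named after their values were seen. Near Vwf these were Ncapd2 and Mrpl51, higher by 0.45 and 0.25 on the log2 scale, and Acrbp, lower by 0.46. Abca4 near F3 was higher by 0.28, Vbp1 near F8 by 0.30, and Selenoh and Slc43a3 near Tfpi by 0.61 and 0.31. Ergic3 near Procr was lower by 0.11, Gm17491 near Plat by 0.69 and Zswim8 near Plau by 0.12. The member at each of these places did not pass. Genes tested in the windows numbered 14 for Vwf, 5 for F3, 10 for F8 and 12 for Tfpi. They numbered 5 for Thbd, 21 for Procr, 13 for Plat and 17 for Plau. Of all genes tested, 6.71% were higher and 6.09% lower. The genes named here are a description and not a result about these places.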
